A study of Mus musculus with 131 samples.

Results

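The germline genes described here are 10 genes that germ cells use and that most other cells keep silent by methylating their promoters: Dazl, Ddx4, Mael, Asz1, Tdrd1, Sycp1, Sycp3, Tdrkh, Piwil2 and Mov10l1. They were chosen by name, from 49997 genes in the RefSeq annotation. Of the 10, 9 have a listed transcription start and a promoter level in all libraries, out of 26211 genes with one. No start is listed for Piwil2, so it enters the gene body values and is otherwise given at both of its gene ends. In the expression table, 9 of the 10 are among 13927 genes, and Tdrd1 has no row.

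The study injected mouse embryonic stem cells (ESCs) into diploid host embryos. CpG methylation was measured by bisulfite sequencing in 3 cultured cell types of strain C57BL/6J, with 1 library each: wild-type mouse embryonic fibroblasts (MEF) at p2, ESCs homozygous for the 35delG deletion in the connexin gene Gjb2 at p7, and ESCs with an Actin-RFP transgene at p10. RNA was measured in single cells of reconstructed E4.0 blastocysts of the same strain, 40 carrying an Actin-GFP transgene and 55 carrying an Actin-RFP transgene. In the design text, given for E7.5 embryos, Actin-RFP marks the injected ESCs and Actin-GFP the host. The ESC lines differ from each other in genotype and in passage number as well as in derivation, and these cannot be told apart with 1 library per line. No bisulfite library of GFP or RFP blastocyst cells was analysed here.

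Germline genes of this class are stripped of methylation in primordial germ cells and become methylated in the embryo proper around implantation, mainly by the de novo enzyme DNMT3B. Before and beside methylation they are held silent by a variant Polycomb complex that contains MGA, MAX, L3MBTL2 and PCGF6 and binds E-box and E2F sites through MGA, MAX and E2F6. Their products act in germ cell RNA control (Dazl, Ddx4), in the piRNA pathway that silences transposons (Mael, Asz1, Tdrd1, Tdrkh, Mov10l1, Piwil2) and in the synaptonemal complex that holds paired meiotic chromosomes (Sycp1, Sycp3).

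The promoters are dense in CpGs when set beside promoters that are methylated in fibroblasts. In the 300 bases from 250 before to 50 after the start (RefSeq, GRCm38.p6), the 9 genes hold 15 to 38 CpGs with a median of 21. The median is 7 over 27018 promoters and 3 over the 13575 whose MEF level is at least 50%. Shown here are the 250 bases upstream of the start of Ddx4, whose start window had the lowest Actin-RFP level among the most CpG-rich windows of the promoters methylated in MEF, of Sycp1, whose promoter lay furthest below MEF in the Gjb2-35delG ESCs, of Dazl, the most methylated in MEF, and of Tdrkh, the exception described below. Each is written 5′ to 3′ on the gene's strand, and capitals mark the CpGs.
Ddx4, chr13:112652311-112652560, minus strand: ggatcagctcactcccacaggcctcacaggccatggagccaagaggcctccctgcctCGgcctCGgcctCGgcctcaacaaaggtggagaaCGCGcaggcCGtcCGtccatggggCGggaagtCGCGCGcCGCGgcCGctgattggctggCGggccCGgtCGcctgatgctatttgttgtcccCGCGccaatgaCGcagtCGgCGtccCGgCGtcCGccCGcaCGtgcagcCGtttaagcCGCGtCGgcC
Sycp1, chr3:102936101-102936350, minus strand: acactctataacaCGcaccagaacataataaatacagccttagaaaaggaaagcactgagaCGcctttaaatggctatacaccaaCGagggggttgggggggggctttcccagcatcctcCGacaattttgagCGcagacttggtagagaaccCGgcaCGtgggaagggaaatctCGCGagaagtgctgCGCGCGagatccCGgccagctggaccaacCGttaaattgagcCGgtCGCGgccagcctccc
Dazl, chr17:50293621-50293870, minus strand: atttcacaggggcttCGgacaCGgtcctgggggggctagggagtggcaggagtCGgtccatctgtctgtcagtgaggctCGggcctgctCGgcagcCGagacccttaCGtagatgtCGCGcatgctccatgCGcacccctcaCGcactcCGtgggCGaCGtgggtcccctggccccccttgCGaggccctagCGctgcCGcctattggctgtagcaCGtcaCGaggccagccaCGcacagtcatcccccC
Tdrkh, chr3:94412994-94413243, plus strand: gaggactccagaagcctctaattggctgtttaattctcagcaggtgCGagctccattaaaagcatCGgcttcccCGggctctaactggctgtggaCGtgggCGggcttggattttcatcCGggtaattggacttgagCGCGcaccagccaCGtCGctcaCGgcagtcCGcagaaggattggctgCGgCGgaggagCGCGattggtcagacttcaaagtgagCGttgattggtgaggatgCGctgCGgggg

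Of the 9 promoters of 300 bases, 6 hold the E-box letters CACGTG and 4 hold TCCCGC, the core letters of E2F6-type sites, on either strand. No match of one overlapped a match of the other in these promoters. Over all promoters of the same length the shares are 7.24% for CACGTG and 20.1% for TCCCGC, and over those with a MEF level of at least 50% they are 4.97% and 5.20%. Both are present in Ddx4, Mael, Sycp1 and Sycp3, against 2.05% of all promoters and 0.442% of those methylated in MEF. Each motif contains a CpG, and these shares are not matched for CpG content. The median is 21 CpGs in the germline promoters, 7 in all promoters and 3 in those methylated in MEF. In Ddx4, CACGTG begins at -29 and TCCCGC, on the other strand, at -136 from the start. In Sycp1, CACGTG begins at -94. Tdrd1 and Mov10l1 hold CACGTG only, and the letters of neither are found in this window of Dazl, Asz1 and Tdrkh.

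Promoter methylation was high in fibroblasts, lower in the Gjb2-35delG ESCs and lowest in the Actin-RFP ESCs for 8 of the 9 genes. A promoter level is the mean over 200 bp windows from 1000 bp upstream to 500 bp downstream of the start that had at least 5 calls in each library. The median of the 9 genes was 85.2% in MEF, 61.9% in the Gjb2-35delG ESCs and 36.3% in the Actin-RFP ESCs. By any amount, 8 of 9 were below MEF in the Gjb2-35delG ESCs and 9 of 9 in the Actin-RFP ESCs, against 75.6% and 93.7% of all genes and 80.9% and 99.7% of the 13578 genes with a MEF level of at least 50%. With 1 library per cell type, no difference was tested, and the intervals below (95% Wilson, from pooled calls) cover counting error only.

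**Figure D1:**
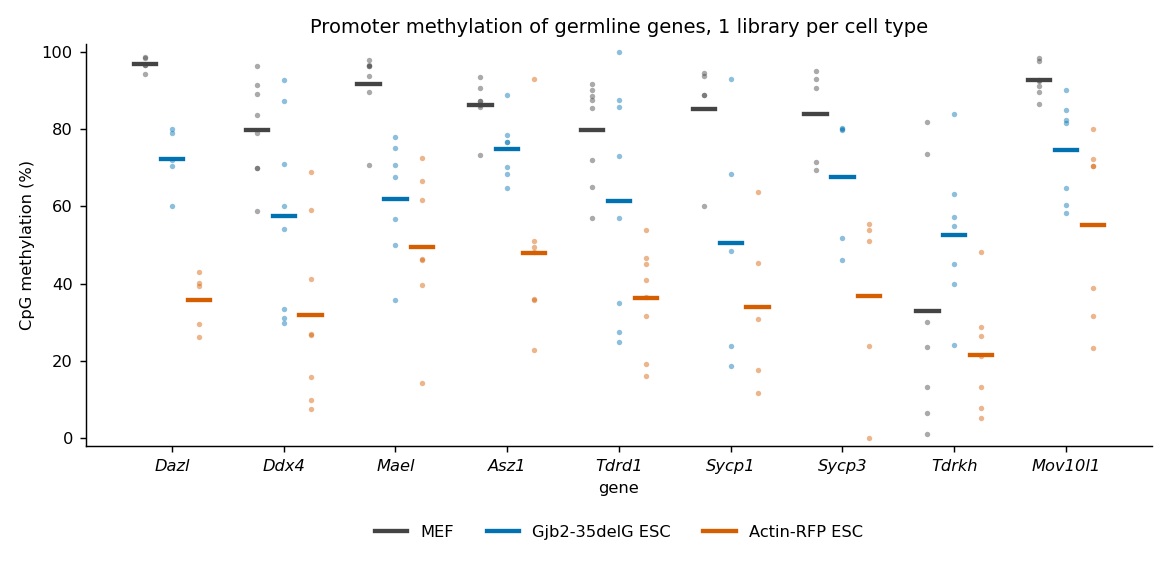
CpG methylation (%, y axis) of the promoter windows of 9 germline genes (x axis) in the 3 libraries. Points are 200 bp windows and bars their mean. The Actin-RFP bar is the lowest of the 3 for every gene, and Tdrkh is the only gene whose Gjb2-35delG bar (52.6%) lies above its MEF bar (32.8%).

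Of the RNA regulators of germ cells, Dazl was heavily methylated in fibroblasts. Ddx4 stood near the MEF mean over windows with a value in all libraries (79.1%). Dazl, an RNA-binding protein that drives germ cell translation, stood at 96.9% in MEF, 72.3% in the Gjb2-35delG ESCs and 35.7% in the Actin-RFP ESCs. Its difference of -61.3 points between the Actin-RFP ESCs and MEF was the largest of the 9. Pooled calls gave 96.4% (94.7% to 97.5%, 687 calls), 74.5% (69.1% to 79.2%, 286 calls) and 37.0% (33.2% to 40.9%, 598 calls), intervals that do not overlap. Ddx4, the germ cell helicase also called Vasa, stood at 79.8%, 57.4% and 32%.

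The piRNA pathway genes followed the same order, with Tdrkh apart. Mael, needed for transposon silencing in the testis, stood at 91.6%, 61.9% and 49.6%. Asz1, a mitochondrial protein needed for piRNA production, kept 74.8% in the Gjb2-35delG ESCs, the highest there of the 9, from 86.2% in MEF, and stood at 48% in the Actin-RFP ESCs. Tdrd1, a Tudor protein that binds Piwi proteins, stood at 79.7%, 61.3% and 36.3%. Mov10l1, a helicase needed for piRNA production, stood at 92.6%, 74.6% and 55.3%, the highest Actin-RFP level of the 9. Piwil2, a Piwi protein, stood at 83.4%, 77.9% and 40.2% around its lower-coordinate gene end (chromosome 14, position 70372477) and at 97.7%, 63.4% and 47.5% around its higher-coordinate end (70436898). These levels rest on 141 to 163 calls and on 44 to 86 calls per library. Both Piwil2 ends were lowest in the Actin-RFP ESCs.

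The synaptonemal complex genes showed the same order. Sycp1, the transverse filament, stood at 85.2% in MEF, 50.4% in the Gjb2-35delG ESCs and 33.9% in the Actin-RFP ESCs. Its difference of -34.7 points was the only one past 30 points in the Gjb2-35delG ESCs, with Mael just short of it at -29.7. Sycp3, of the lateral element, stood at 83.9%, 67.6% and 36.8%.

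The size of these differences has to be read against methylation that was lower in the ESC libraries in general. The mean over 7638465 windows shared by the libraries was 79.1% in MEF, 67.6% in the Gjb2-35delG ESCs and 38.5% in the Actin-RFP ESCs. In the Actin-RFP ESCs, 8 of the 9 germline promoters lay at least 30 points below MEF, against 42.5% of all genes and 77.1% of the genes with a MEF level of at least 50%. The members' count is thus near the share of promoters that are methylated in fibroblasts. In the Gjb2-35delG ESCs it was 1 of 9 against 5.82% and 9.53%, and between the ESC lines 3 of 9 (Dazl, Sycp3 and Tdrkh) were at least 30 points lower in the Actin-RFP line, against 23.4% and 42.6%.

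Median differences of the 9 genes were somewhat larger than those of the methylated background in relation to MEF. The Gjb2-35delG ESCs lay below MEF by a median of -18.3 points, against -9.79 over genes with a MEF level of at least 50% and -6.73 over all genes. For the Actin-RFP ESCs the medians were -43.4, -39.3 and -25.3 points. The 9 genes had a higher median level in MEF than the methylated background, 85.2% against 78.3%. Their median was lower in the Gjb2-35delG ESCs, 61.9% against 68.7%, and close to it in the Actin-RFP ESCs, 36.3% against 37.5%. Between the ESC lines the order turned, with -25.4 points for the 9 genes and -28.1 for the methylated background. The Gjb2-35delG count depends on the region taken: within 500 bp of the start 4 of 9 were at least 30 points lower, against 5.81% of all genes and 10.8% of those with a MEF level of at least 50%, and within 2000 bp 0 of 9 were, against 6.66% and 7.69%.

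**Figure D2:**
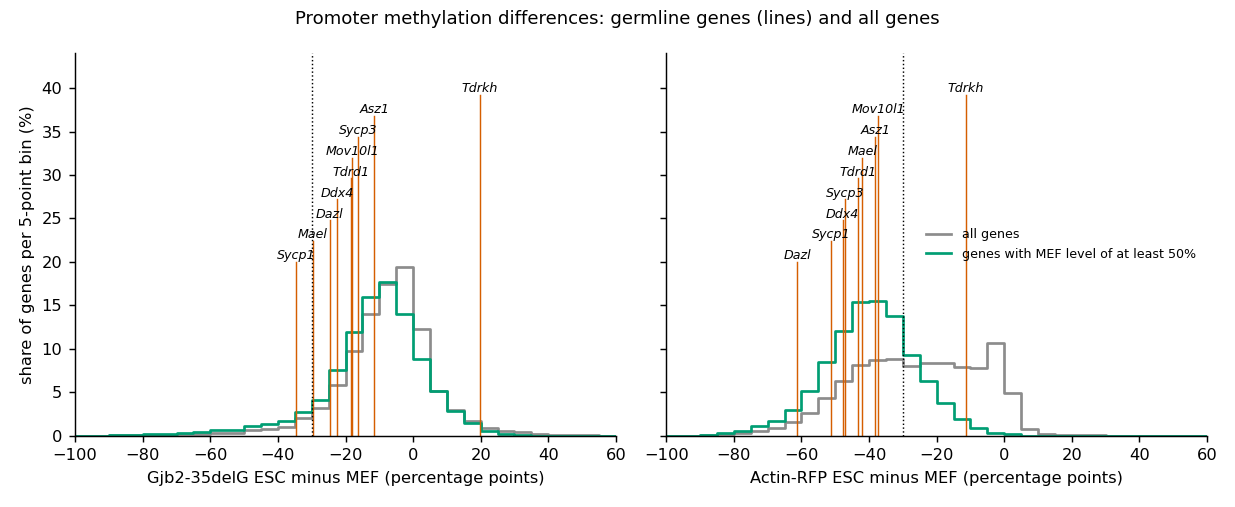
Share of genes (%, y axis) per 5-point bin of the promoter difference from MEF (x axis, percentage points) for the Gjb2-35delG ESCs (left) and the Actin-RFP ESCs (right). Orange lines are the 9 germline genes, their heights only separate the names, and the dotted line is at -30 points. On the right, Dazl at -61.3 points lies in the lower tail of the methylated background, the other 7 genes past the dotted line lie between -51.3 and -37.3 points, and Tdrkh is at -11.3.

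In both ESC lines the start itself, where the CpGs are densest, was less methylated than its flanks for every gene but Dazl. Windows centred within 300 bp of the start were compared with windows 500 to 2000 bp away, a split chosen after the profiles had been seen. In MEF the medians of the 9 genes were close, 84.3% at the start and 82.6% in the flanks, though single genes ranged from 45.6 points higher at the start (Dazl) to -62.7 points (Tdrkh). In the Gjb2-35delG ESCs they stood at 51.7% against 74.3%, and in the Actin-RFP ESCs at 26.9% against 48.1%. Start windows were below the flank for 8 of 9 genes in each ESC line, against 73.3% and 75.1% of all genes and 52.1% and 55.9% of genes with a MEF level of at least 50%. In MEF this held for 4 of 9, against 73.8% and 51.3%.

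Part of this pattern is shared by other CpG-rich promoters that are methylated in fibroblasts. Among 485 genes with a MEF level of at least 50% and at least 10 CpG cytosines per start window covered in every library, the start was the lower in 59.6% in MEF, 69.7% in the Gjb2-35delG ESCs and 79% in the Actin-RFP ESCs. Their median start minus flank difference was -5.50 points in MEF, -13.3 in the Gjb2-35delG ESCs and -14.6 in the Actin-RFP ESCs. For the 9 germline genes the medians were 6.10, -21.6 and -23.5 points, but not all 9 would pass the filters of this set. Dazl, Sycp1, Sycp3 and Tdrkh have 7.67, 9.67, 6.67 and 7.5 such cytosines per start window, and Tdrkh is also under 50% in MEF. Single windows with at least 20 CpG cytosines covered in some library and a MEF level of at least 50% were compared too. The 19 such windows near the germline starts, from 8 genes, had medians of 90.5%, 48.4% and 23.2%, and the 23049 in the genome 92.0%, 75.4% and 42.9%.

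**Figure D3:**
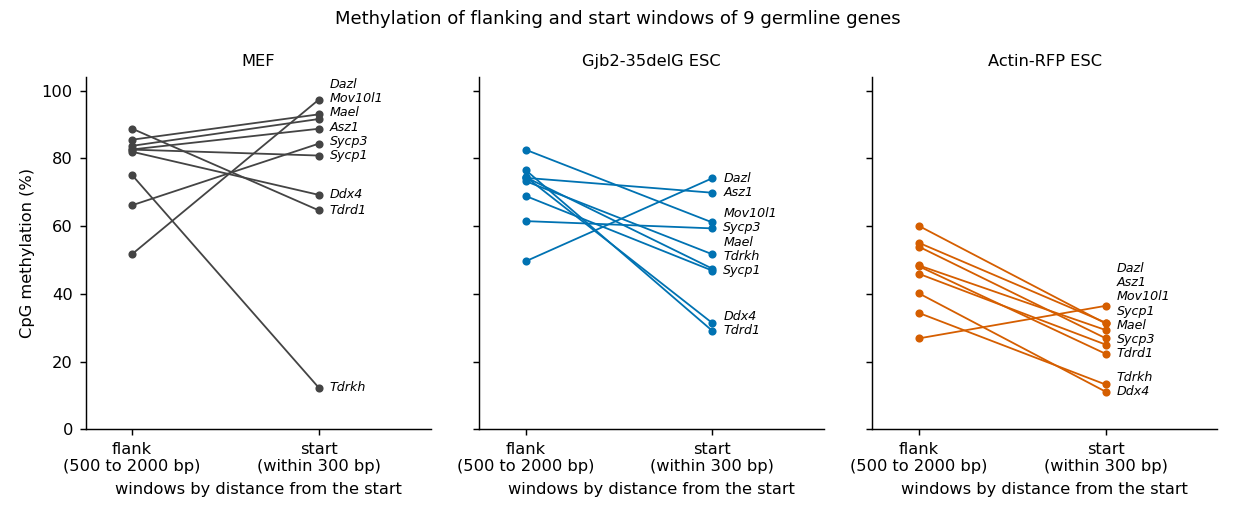
CpG methylation (%, y axis) of windows 500 to 2000 bp from the start and of windows within 300 bp of it (x axis) in MEF, Gjb2-35delG ESCs and Actin-RFP ESCs. Each line is 1 of 9 germline genes. In MEF 5 of the 9 lines rise towards the start, and in each ESC line 8 of 9 go down, the exception being Dazl.

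Among the most CpG-rich window of each gene, Tdrkh aside, the lowest Actin-RFP levels were those of Ddx4, Mael and Tdrd1. In Ddx4, the window centred 10 bp from the start, with 50 CpG cytosines, stood at 58.8% in MEF (152 calls), 29.9% in the Gjb2-35delG ESCs (50 calls) and 7.43% in the Actin-RFP ESCs (401 calls). In Mael, the window at 44 bp stood at 93.6% in MEF, 35.8% and 14.2%. In Tdrd1, the window at 91 bp stood at 57.0%, 24.9% and 16.2%. These windows were all low in the Actin-RFP line, while in MEF the Mael window was nearly fully methylated and the others were not.

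The Sycp1 dip lay downstream of the start. Its windows at 200 and 400 bp stood at 88.7% and 88.9% in MEF, at 24% and 18.7% in the Gjb2-35delG ESCs and at 11.8% and 17.6% in the Actin-RFP ESCs. At 200 bp the MEF value rests on 23 calls and the others on 145 and 377. In Sycp3, the window at -87 bp stood at 90.5%, 51.9% and 23.9%, and the one at 113 bp was read at 0% in the Actin-RFP ESCs from 10 calls only. Asz1 separated the ESC lines: its window at -39 bp kept 76.6% in the Gjb2-35delG ESCs (138 calls), from 93.3% in MEF, and stood at 22.9% in the Actin-RFP ESCs (228 calls). Mov10l1 at -94 bp stood at 91.2%, 60.3% and 23.2%.

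Dazl differed in shape. Over its 5 windows, methylation ranged only from 94.3% to 98.8% in MEF and from 26.2% to 43.1% in the Actin-RFP ESCs. In the Gjb2-35delG ESCs the windows at -480, -280 and -80 bp stood at 79.0%, 72.1% and 70.3%, and the other 2 rest on 10 calls each. Methylation ended sharply inside the gene. At 320 bp MEF stood at 94.3%, and at 920 bp at 6.06% (152 calls), where the Gjb2-35delG ESCs stood at 12.5% (32 calls) and the Actin-RFP ESCs at 3.12% (183 calls). That window was low in all 3 libraries.

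**Figure D4:**
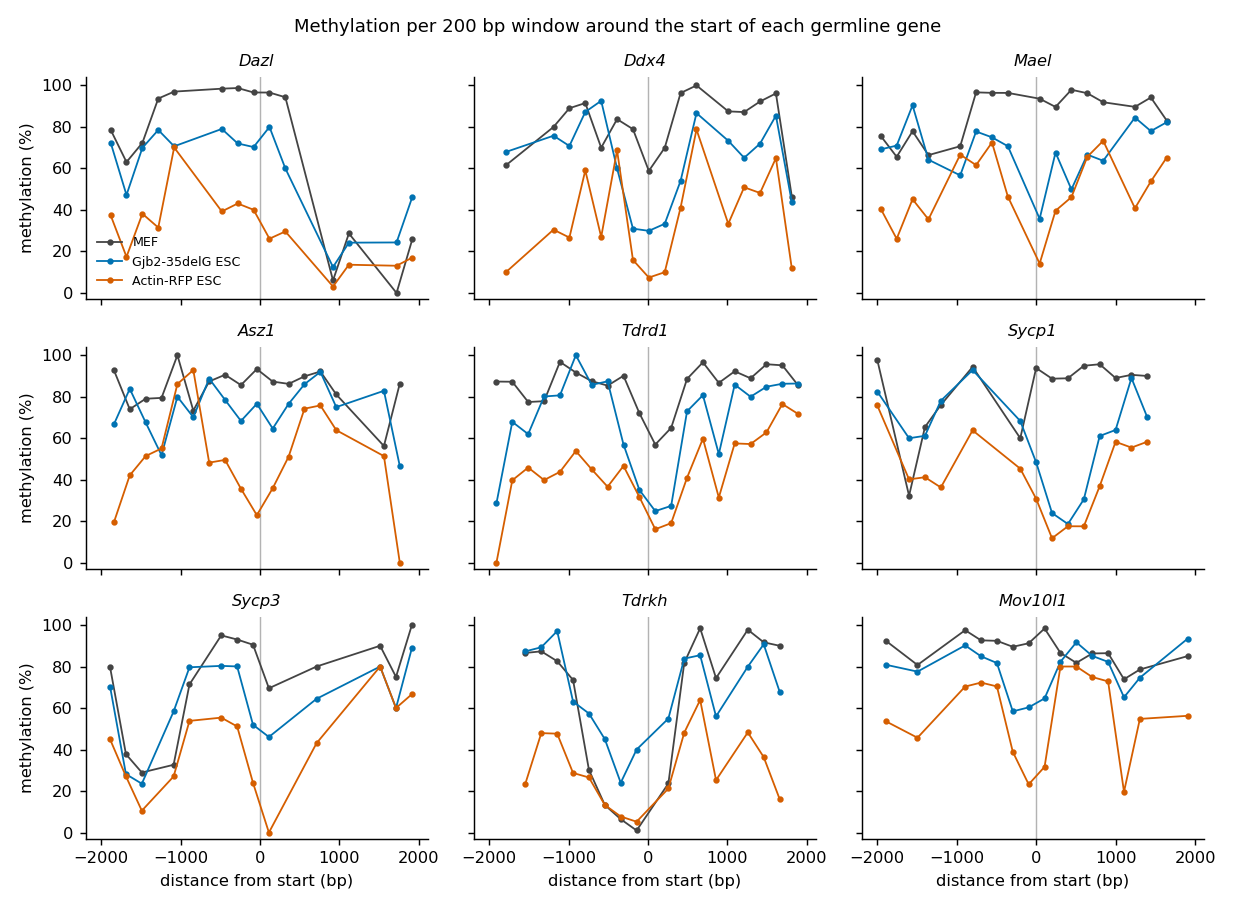
CpG methylation (%, y axis) per 200 bp window against distance from the start (bp, x axis) for 9 germline genes, with MEF in black, Gjb2-35delG ESCs in blue and Actin-RFP ESCs in orange. Only windows with a value in all 3 libraries are drawn. In Ddx4, Mael, Tdrd1 and Sycp1 both ESC lines dip at or just after the start, in Asz1 and Mov10l1 the Actin-RFP line dips deeper, and in Tdrkh MEF itself is low.

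Tdrkh, a mitochondrial Tudor protein needed for piRNA trimming, went against the name of the group. Its promoter was the only one under 50% in MEF, at 32.8%, and stood at 52.6% in the Gjb2-35delG ESCs and 21.6% in the Actin-RFP ESCs. In its CpG-rich windows at -544, -344 and -144 bp, MEF stood at 13.3%, 6.45% and 1.0%, and the Actin-RFP ESCs at 13.3%, 7.74% and 5.23%. The Gjb2-35delG ESCs stood at 45%, 24% and 40% there, but from 20, 25 and 5 calls. Better covered windows at -744 and 256 bp stood at 30.2% and 23.6% in MEF and at 57.4% (72 calls) and 54.9% (93 calls) in the Gjb2-35delG ESCs. Pooled calls gave 21.1% (18.5% to 23.9%), 59.3% (53.7% to 64.6%) and 18.5% (15.8% to 21.5%). The intervals of MEF and the Actin-RFP ESCs overlap, and that of the Gjb2-35delG ESCs lies above both. Pooling weights windows by their calls, and these fell in different windows. At -544, -344 and -144 bp MEF had 201, 167 and 127 calls, against 20, 25 and 5 in the Gjb2-35delG ESCs. The pooled intervals thus rest on different mixes of windows. The Gjb2-35delG difference from MEF was 38.2 points with pooled calls and 19.8 with windows weighted equally.

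Gene bodies stood close to the genome means. From 2000 bp past the start to the gene end, the medians of the 10 genes were 79.8% in MEF, 70.4% in the Gjb2-35delG ESCs and 37.7% in the Actin-RFP ESCs. For Piwil2, without a listed start, 2000 bp were left out at both gene ends. The ranges were 69.2% to 87.6%, 57.8% to 77.8% and 30.2% to 53.9%. The surroundings within 500 kb of the 9 starts had medians of 80.9%, 67.8% and 40.6%. Against its own surroundings, the Dazl promoter differed by 15.4 points in MEF and by -12.9 points in the Actin-RFP ESCs. Mov10l1 and Asz1 stayed above their surroundings in all 3 libraries. The differences were 14.5, 12.6 and 17.6 points for Mov10l1 and 5.22, 6.55 and 8.62 points for Asz1.

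Other genes of the same pathways showed the same order of medians. Of 24 listed meiosis genes, 20 had a promoter level, with medians of 78.7%, 51.4% and 25.3%. In the Gjb2-35delG ESCs 3 lay at least 30 points below MEF: Msh4, a meiotic protein of the MutS family (81.5%, 24.6% and 9.34%), Dmc1, the meiotic recombinase (48.7%, 3.33% and 5.08%), and Syce1, of the synaptonemal complex (82.5%, 47.9% and 25%). In the Actin-RFP ESCs 14 did: these 3 with Brdt, Hormad1, Hormad2, Mei1, Meioc, Rec8, Rnf212, Stra8, Syce3, Sycp2 and Tex12. The shares over genes with a MEF level of at least 50% are 9.53% and 77.1%, and over all genes 5.82% and 42.5%. Of 15 further piRNA genes, 13 had a level, with medians of 75.8%, 63.6% and 33.8%. Tdrd12 (83.7%, 47.3% and 26.6%) was the 1 at least 30 points below MEF in the Gjb2-35delG ESCs. In the Actin-RFP ESCs 9 were, Tdrd12 with Gpat2, Gtsf1, Henmt1, Piwil1, Piwil4, Tdrd7, Tdrd9 and Tex19.1. Some germline genes were low everywhere, among them Exd1 (3.34%, 6.27% and 3.87%), Ddx25 (5.45%, 12.8% and 4.18%) and Msh5 (9.96%, 8.92% and 6.40%).

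Marker promoters were checked against the labels. Those of the pluripotency genes Pou5f1, Nanog, Zfp42 and Tdgf1 stood at 41.8% to 70.7% in MEF and at most at 4.52% in either ESC line. The fifth gene of the list with a level, Esrrb, stood at 55.5%, 73.5% and 32.7%. The fibroblast collagen gene Col3a1 stood at 22.5% in MEF, 64.8% in the Gjb2-35delG ESCs and 49% in the Actin-RFP ESCs, and Col1a2 at 17.4%, 38.9% and 29.8%. The other 3 fibroblast promoters separated the libraries little: Twist1 stood at 7.26%, 15.5% and 10.8%, Twist2 at 5.89%, 11.8% and 8.20%, and Prrx1 at 4.21%, 4.17% and 10.7%.

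Apart from Sycp3, reads of these genes came from a minority of the blastocyst cells. The GFP cells held 223.6 M reads and the RFP cells 311.3 M, with medians of 5.61 M and 5.58 M per cell. The labels do not tie cells to embryos. Each group therefore counts as 1 sample and nothing was tested. Levels are CPM, counts per M of the group's summed reads, with exact 95% Poisson intervals that cover counting error only. Without molecular identifiers, PCR copies count as reads. Counts above 0 were mostly even, as given below, so reads were not independent and the Poisson intervals may be too narrow even for counting error. The log2 ratio is on CPM + 1, which understates changes of low genes. In each group 4 of the 9 genes reached 10 CPM, against 6881 of all 13927 genes in GFP and 6961 in RFP cells. At least 1 CPM was reached by 8 of 9 in GFP and 6 of 9 in RFP cells, against 73.4% and 75.3% of all genes.

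Sycp3 was the most widely read of the group. It had reads in 37 of 40 GFP cells (92.5%, exact 95% interval 79.6% to 98.4%) and in 34 of 55 RFP cells (61.8%, 47.7% to 74.6%). Its level was 142 CPM (140.5 to 143.7) in GFP and 23.7 CPM (23.2 to 24.3) in RFP cells, a log2 ratio of -2.53, and the median cell had 117 CPM and 0.960 CPM. The single-cell ranges overlap, from 0 to 478 CPM in GFP and from 0 to 268 CPM in RFP cells. At least 10 CPM was reached in 35 GFP and 21 RFP cells.

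Sycp1 had reads in 17 of 40 GFP cells and 27 of 55 RFP cells. Its level was 16.7 CPM (16.1 to 17.2) in GFP and 39.2 CPM (38.5 to 39.9) in RFP cells, a log2 ratio of 1.19. The median cell of each group had none, and a single RFP cell reached 1466 CPM. The cell with the most reads gave 51.2% of the GFP reads and 24.5% of the RFP reads.

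The RNA regulators were read in few cells. Ddx4 had reads in 2 GFP cells and 10 RFP cells, at 1.40 CPM and 14.7 CPM, a log2 ratio of 2.72, and 6 RFP cells carried it at 69.9 to 177 CPM. Dazl had reads in 2 GFP cells and 4 RFP cells, at 1.95 CPM and 3.95 CPM. Of its 436 GFP reads, 412 came from 1 cell. Both were at 0 in most cells and well above 10 CPM in a few.

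Of the piRNA genes, Asz1, Piwil2 and Tdrkh were read almost only in GFP cells. Mael had reads in 7 GFP cells and 14 RFP cells, at 22.4 CPM and 10.6 CPM. Asz1 had reads in 6 GFP cells at 10.8 CPM in total, and 2 reads in 1 RFP cell (0.00643 CPM, 0.000778 to 0.0232). Piwil2 had reads in 10 GFP cells at 3.18 CPM, and likewise 2 reads in 1 RFP cell. Tdrkh had 250 reads in GFP cells, 248 of them in 1 cell, and none in the 55 RFP cells, which by the limit of 3 counts allows up to 5.45% of cells with a read and sets no limit on cells that express the gene. Mov10l1 had 8 reads in 1 GFP cell and 830 reads in 1 RFP cell.

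Of the 9 genes read, 3 were at least 1 log2 unit higher in RFP cells (Ddx4, Mov10l1, Sycp1) and 5 at least 1 lower (Sycp3, Asz1, Piwil2, Tdrkh, Mael), against 25% and 21.9% of all 13927 genes. Without the cell with the most reads of the gene in each group, Mael (-0.73), Tdrkh (-0.01) and Mov10l1 (0.00) no longer passed 1, and Dazl did (1.43). With 10 CPM added in place of 1, Ddx4 (1.12), Asz1 (-1.05) and Sycp3 (-2.17) still passed, and Sycp1 (0.88), Mov10l1 (0.34), Mael (-0.66), Piwil2 (-0.40) and Tdrkh (-0.15) did not. Read counts above 0 were mostly even numbers, 88.0% of them in GFP cells and 87.7% in RFP cells. At least 1 of the genes had 10 CPM or more in 36 GFP and 37 RFP cells, and 1 RFP cell had 5 of them with at least 10 CPM each (Dazl, Ddx4, Mael, Sycp1 and Sycp3).

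**Figure D5:**
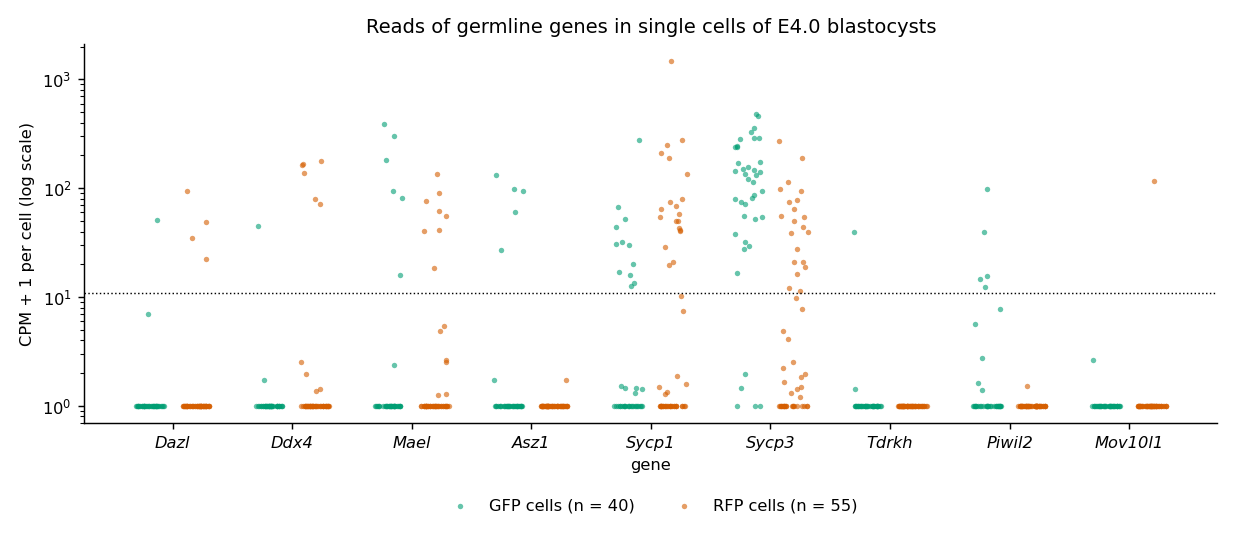
CPM + 1 (y axis, log scale) of 9 germline genes (x axis) in each of 40 GFP and 55 RFP blastocyst cells, with points spread sideways and the dotted line at 10 CPM. Most points sit at the bottom, where a cell had no read, except for Sycp3 in GFP cells, of which 35 lie above the line.

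The groups of cells also differed in lineage markers. All 8 trophectoderm markers were at least 1 log2 unit lower in RFP cells, with summed levels of 7721 CPM in GFP and 170 CPM in RFP cells. Of 9 listed epiblast markers 8 were in the table and 7 were at least 1 higher, the exception being Nanog, with sums of 160 CPM and 1608 CPM. The part of this in the values of the germline genes was not tested. Of the 6 primordial germ cell markers, Nanos3 stood at 0.00895 CPM in GFP and 0.0771 CPM in RFP cells, Kit at 0.0179 CPM and 0.00643 CPM, and Prdm14 at 0 and 0.919 CPM. Dnd1 stood at 0.805 CPM and 6.81 CPM, with reads in 6 RFP cells. The sum of the 6 germ cell markers, 87.8 CPM and 37.1 CPM, came mostly from Tfap2c (87.0 CPM) in GFP cells, which trophectoderm also expresses, and from Prdm1 (28.3 CPM) in RFP cells. Of 7 oocyte markers 3 were in the table, and the highest, Zp3, stood at 0 in GFP and 9.51 CPM in RFP cells.

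Promoter levels in the Actin-RFP ESCs were set beside reads in RFP cells. Tdrkh had the lowest promoter level (21.6%) and no read. Ddx4 (32%) stood at 14.7 CPM, Sycp1 (33.9%) at 39.2 CPM, Dazl (35.7%) at 3.95 CPM and Sycp3 (36.8%) at 23.7 CPM. Of the more methylated genes, Asz1 (48%) stood at 0.00643 CPM, Mael (49.6%) at 10.6 CPM and Mov10l1 (55.3%) at 2.67 CPM, all of it in 1 cell. With Tdrkh included, the range was 0 to 39.2 CPM for genes at 20% to 40%. For those at 40% to 60% it was 0.00643 to 10.6 CPM, which lies inside the first range. Of the 6 genes at 20% to 40%, 5 were in the table and 4 of these reached 1 CPM, and of the 3 at 40% to 60%, 2 did. Over all protein-coding genes in the table the shares at 1 CPM or more were 54.3% and 35.5% for these levels, and 84.4% for promoters under 20%. These shares leave out genes without a row. Of the protein-coding genes with such promoters, 38.7%, 29.8% and 83.5% were in the table. The ESCs were cultured cells and the RFP cells came from embryos, and the methylation of the latter was not measured here.

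Genes of the silencing machinery were all in the table. Of 19, 7 were at least 1 log2 unit higher in RFP cells and 2 lower, against 25% and 21.9% of all genes in the table. De novo and maintenance factors were among the higher: Dnmt3a (34 CPM and 399 CPM), Dnmt3b (88.8 CPM and 432 CPM), Dnmt1 (23.1 CPM and 83.1 CPM) and its partner Uhrf1 (16.3 CPM and 131 CPM). So were the Polycomb members L3mbtl2 (24.2 CPM and 154 CPM) and Pcgf6 (54.3 CPM and 187 CPM) and the demethylating enzyme Tet1 (54.2 CPM and 474 CPM). Lower were Dppa3, which limits maintenance methylation (4750 CPM and 165 CPM), and Tet2 (163 CPM and 9.68 CPM). E2f6 stood at 36.6 CPM and 29.9 CPM. Among the other germline genes, the meiosis gene Syce2 was read in 52 of 55 RFP cells (103 CPM and 369 CPM) and the piRNA gene Tdrd12 in 24 (4.53 CPM and 119 CPM). Of 18 meiosis genes in the table, 9 were at least 1 log2 unit higher (Hormad1, Majin, Meiob, Meioc, Stag3, Syce1, Syce2, Syce3 and Tex11) and 3 lower (Brdt, Dmc1 and Sycp2). Of 13 piRNA genes, 4 were higher (Ddx25, Henmt1, Pld6 and Tdrd12) and 3 lower (Gpat2, Gtsf1 and Tdrd7). The shares of all genes are the same 25% and 21.9%, near those of the piRNA genes.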

How the data were processed

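Bisulfite libraries of 3 cultured cell types and single cells of E4.0 blastocysts were analysed. Groups were taken from the labels. The genes, lists, motifs and thresholds were chosen with earlier results of these data known. The authors deposited, for each 200 bp window, the methylation fraction averaged over covered CpG cytosines of both strands, with counts of methylated and unmethylated calls. The covered cytosines were checked against the promoter sequences: they were at most the CpG cytosines of both strands in 97.5% of 16218 windows. The libraries held 317 M, 288 M and 319 M calls, and each covered cytosine has at least 5. The deposited expression values are a signal, read counts divided by 1 factor per cell by the authors, and after division by each cell's step 100% of values were whole within 0.01. A count model was not fitted, since each group of cells is 1 sample. The submitters' processing notes list mm10 as a build and, among other tools, STAR 2.7.3a and featureCounts 2.0.0, without saying what each was used for. The aligner and methylation caller of the bisulfite reads were not stated there.

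Promoter levels were means over windows with equal weight, at each gene's most upstream start in a list of RefSeq promoters (GRCm38.p6, the assembly behind mm10). For some genes this start lies inside the annotated gene. Examples are Ddx4 (minus strand, start 112652310, gene end 112652633) and Mov10l1 (plus strand, start 88982994, gene start 88982891). The upstream bases shown for Ddx4 thus lie within its annotated gene. A difference of 30 points, or a log2 ratio of 1 on CPM + 1, was called lower or higher. The text names all members and, from the listed pathways and silencing factors, the genes past these limits and some extremes. Intervals at 95% and limits from 3 counts cover counting error only, and no difference between groups was tested. The alternatives were other promoter regions, pooled calls, minimums of 10 and 20 calls, windows with at least 3 CpGs, other pseudocounts, cells left out and cells thinned to 500000 reads. The code for promoter levels and intervals was checked on simulated data with known shifts. Python 3.11.15, numpy 2.4.6, pandas 2.3.3 and scipy 1.17.1 were used.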

Additional observations from a re-analysis of the deposited data

Results flagged for a closer look

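Tdrkh was the only one of the 9 promoters whose ESC lines lay on opposite sides of the fibroblast level. The difference from MEF was 19.8 points in the Gjb2-35delG ESCs and -11.3 points in the Actin-RFP ESCs. With 1 library per cell type the difference was not tested, and the Gjb2-35delG value rests on 307 calls, against 883 in MEF and 713 in the Actin-RFP ESCs.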

How the results depend on the processing

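The sign of every median promoter difference was the same under all 9 alternatives, and the 6 recomputed gene body medians kept theirs. The median for the Gjb2-35delG ESCs minus MEF moved from -18.3 points to -24.7 within 500 bp of the start, -10.5 within 2000 bp, -24.1 with 20 calls and -24.0 with 3 CpGs per window. For the Actin-RFP ESCs minus MEF, the median of -43.4 moved to -49.6 within 500 bp, -37.1 with 2000 bp upstream and 1000 bp downstream, -36.8 within 2000 bp, -49.6 with pooled calls, -47.8 with 20 calls and -49.4 with 3 CpGs. The number at least 30 points lower in the Gjb2-35delG ESCs, 1 in the main values, was 4 within 500 bp, 0 in both wider regions, 3 with pooled calls, 2 with 10 and with 20 calls, 3 with 3 CpGs and 2 with Piwil2 at its higher-coordinate end, an alternative chosen after seeing the data. Between the ESC lines the count of 3 was 1 within 2000 bp and 5 with pooled calls. The cause was not tested. For single genes, 87 of 189 promoter differences and 31 of 45 log2 ratios moved past counting error, and no called difference or ratio changed sign. No paired analysis was possible because each cell type has 1 library. Depth limits single windows, such as Tdrkh at -144 bp with 5 calls in the Gjb2-35delG ESCs and Sycp1 at 200 bp with 23 in MEF.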

Other observations

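Among the listed oocyte and primordial germ cell markers with a MEF level of at least 50%, Zp3 and Nanos3 were nearly as low in the Gjb2-35delG ESCs as in the Actin-RFP ESCs. Zp3, which encodes an egg coat protein, stood at 82.4% in MEF, 5.0% in the Gjb2-35delG ESCs and 4.11% in the Actin-RFP ESCs. Nanos3, a survival factor of primordial germ cells, stood at 60.7%, 12.3% and 8.28%. The other 3 were the oocyte genes Oosp1 (50.9%, 61.3% and 26.8%), Bmp15 (77.1%, 47.8% and 38.5%) and Nlrp5 (73.6%, 61.5% and 37.1%).

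The 5 genes outside the lists whose promoter levels in the 3 libraries were closest to the medians of the germline genes were Fat1, Slc25a34, Cpn2, Cd300c and Gm36601, with summed distances of 1.55 to 2.69 points.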
